A study of Mus musculus with 2 samples.

Results

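The chaperones described here are the heat shock proteins, J-proteins and TRiC subunits of the cytosol, nucleus and mitochondria, with the heat shock factor Hsf1. They were chosen by gene symbol alone: Hspa, Hspb, Hspd, Hspe, Hsph and Hsp90a followed by a number or letter, Dnaja, Dnajb and Dnajc followed by a number, Cct2 to Cct8, Tcp1 and Hsf1. Hspa5, Dnajb9, Dnajb11 and Dnajc3, chaperones of the endoplasmic reticulum, were left out by that rule. It found 77 of the 34745 gene models in the files. It also took in 3 models whose symbols match but whose products are not chaperones of these families (Hspb11, Hspbp1 and Hspbap1), and several J-proteins that sit in the endoplasmic reticulum.

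RNA was sequenced from mouse haematopoietic stem and progenitor cells that carried either of 2 forms of PML/RARa, a fusion that joins PML, the scaffold of nuclear bodies, to the alpha receptor for retinoic acid and is known from acute promyelocytic leukaemia. The marrow came from C57BL/6 mice treated with 5-fluorouracil, an agent that kills cycling cells. Progenitors were taken from it with an isolation kit, spun with concentrated lentivirus, grown in a myeloid medium with SCF, IL-3, IL-6 and hydrocortisone, and sorted. Both libraries share all of these steps. They differ in the insert: PML/RARa (WT) in the first, called WT below, and PML/RARa (2KR) in the second, called 2KR, where the series title speaks of 2 lysines of the fusion. No source used here gives the age of the mice, the number pooled or the promoter that drove the fusion. The protocol also names cells with the pMSCV vector alone, which were not analysed here, so no level can be set against cells without the fusion.

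Each form has 1 library, so the spread between cultures was not measured and no test was run. Every difference below is between these 2 libraries. Folds are ratios of CPM (counts per 1000000 counts, with library sizes scaled by the TMM method), and the range in brackets after a fold is its exact 95% counting interval, which covers counting error only. Log2 ratios compare 2KR with WT after adding 1 to each CPM, which understates the difference of low genes.

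Chaperones bind proteins that are not yet folded or have lost their fold. HSP70 proteins grip short stretches of a chain and let go in a cycle driven by ATP, in which J-proteins speed the hydrolysis of ATP and hand over the client, and exchange factors such as the HSP110 proteins release the ADP. HSP90 takes over clients such as kinases and steroid receptors late in folding, and the ring-shaped chaperonins, TRiC in the cytosol and Hspd1 with Hspe1 in the mitochondrial matrix, enclose a whole chain. On heat or other protein stress, Hsf1 binds heat shock elements, repeats of the unit GAA in alternating orientation, and raises the transcription of many of these genes.

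The promoters below are examples from members that carry heat shock elements. Dnajc6, Dnajb1, Dnajb5 and Cct3, also described below, had no such element in the bases searched. All are 5′ to 3′ on the strand of the gene, from RefSeq on GRCm38.p6. Capitals mark a heat shock element of 2 units (GAANNTTC or TTCNNGAA), or of 3 units, in which a further GAA or TTC follows in alternation after 2 more bases. Overlapping matches are joined. Hspe1, Dnajb6 and Hspb1 lie on the plus strand and Hspd1, Cct2, Cct5 and Hspa1a on the minus strand. The stretch shown for Hspe1 (chr1:55088053-55088082) lies 95 to 66 bases before the Hspe1 start, and on the other strand the same bases stand before an Hspd1 start. The Hspe1, Hspd1 and Dnajb6 stretches also overlap an annotated untranslated region. The stretch for Dnajb6 is chr5:29735844-29735873, that for Cct2 chr10:117063399-117063428 and that for Cct5 chr15:31601862-31601891. For Hspa1a (chr17:34972177-34972296) and Hspb1 (chr5:135887779-135887898) the 120 bases from 140 to 21 before the start are shown.
Hspe1: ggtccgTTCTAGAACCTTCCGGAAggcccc
Hspd1, other strand: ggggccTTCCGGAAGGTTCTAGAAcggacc
Dnajb6: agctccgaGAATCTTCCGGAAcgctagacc
Cct2: ccccaagtgaaGAAGTTTCtagcaggacct
Cct5: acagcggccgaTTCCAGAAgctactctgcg
Hspa1a: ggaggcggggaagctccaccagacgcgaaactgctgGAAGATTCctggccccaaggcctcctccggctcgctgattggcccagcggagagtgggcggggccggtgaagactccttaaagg
Hspb1: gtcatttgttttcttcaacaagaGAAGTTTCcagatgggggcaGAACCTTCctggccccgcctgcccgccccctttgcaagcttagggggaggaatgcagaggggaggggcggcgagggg

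Total counts were 17606168 for WT and 20462011 for 2KR. Progenitor markers were present in both, at a summed 3769 CPM in WT against 3863 in 2KR for 7 of 7 genes, with Kit at 1359 and 1158 CPM and Cd34 at 388 and 723. The mast cell and basophil list stood at 6425 CPM in WT against 3350 in 2KR, and 4 of its 5 tested genes were at least 2-fold lower in 2KR, while Mcpt8 was higher. Monocyte markers summed to 255 and 114 CPM, most of it Ccr2 and Cx3cr1, while Adgre1 was 1.93-fold and Ly6c2 7.35-fold higher in 2KR. Neutrophil markers summed to 17.3 and 37.3 CPM, erythroid markers to 18.8 and 27.1 and lymphoid markers to 4.18 and 2.43, with Cd3e and Cd79b at 0 counts in both. Endothelial and stromal markers, most of it Pecam1 and Pdgfrb, summed to 1101 and 1132 CPM. Genes of the mitochondrial chromosome took 7.45% of counts in WT and 6.22% in 2KR. These shifts lie along the same contrast as every value below, their part in the results was not tested, and in bulk RNA fewer cells of a type and less RNA per cell cannot be told apart.

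Of the 77 members, 65 had a mean of at least 1 CPM over both libraries and are called tested. Of the other 12, Dnajb3, Dnajb7, Dnajb8, Dnajb13, Hspb2, Hspb3, Hspb7 and Hspb9 had 0 counts in both libraries, against a floor of 3 counts that equals 0.172 CPM in WT against 0.146 CPM in 2KR. Hspa12a had 3 counts in WT against 0 in 2KR, Cct6b 2 and 5, Hspb8 4 and 3, and Dnajc22 4 and 2. Hspb2, Hspb3 and Hspb7 are best known from muscle, and Dnajb3, Dnajb8, Dnajb13, Hspb9 and Cct6b from testis.

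The 77 chaperones together made up 0.970% of all counts in WT (Wilson 95% interval 0.965 to 0.974) and 1.10% in 2KR (1.100 to 1.109). Their summed level was 9764 CPM in WT against 10971 CPM in 2KR, 1.12-fold higher. Hsp90ab1 and Hspa8 alone supplied 40.9% of these counts in WT and 40.7% in 2KR, and without them the sum was 5772 and 6510 CPM, 1.13-fold higher. The difference in the sum was thus as large without the most abundant members.

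Few single members differed by much. Of the 65 tested, 2 were at least 2-fold different (3.08%), both lower in 2KR, beside 7.22% of the 12466 tested models, 4.56% lower and 2.66% higher. At the 1.5-fold mark there were 4 (6.15%), beside 16.6% of all tested models. These 4, Dnajc6, Hspb1, Hspb11 and Dnajb5, were all lower, beside 9.67% of all models lower and 6.92% higher at that mark. Dnajc12, with a log2 ratio of -0.58, and Dnaja4, with 0.58, lay just short of it. The share of chaperones past either mark was below that of all tested models, which include many at lower levels.

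Most differences were small, and their directions are described below by the role of the protein. A ratio above 1 was found in 37 tested members (56.9%), and below 1 in 28, beside 52.3% above and 47.7% below over all tested models. The counting interval lay wholly above 1 in 24 (36.9%), beside 31.6% of all models, and wholly below 1 in 16 (24.6%), beside 28.5%. Among the 30 tested members that are not J-proteins, 24 lay above 1 and 6 below, with a median log2 ratio of 0.23. Among the 35 tested J-proteins, 13 lay above and 22 below, with a median of -0.09, while the median of all tested models was 0.02 (quartiles -0.21 and 0.23). In sums, the members other than J-proteins stood at 7689 CPM in WT against 9022 in 2KR, 1.17-fold higher (1.165 to 1.182). The J-proteins stood at 2075 and 1949 CPM, 1.065-fold lower in 2KR. The split by J-protein was made with these values known.

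**Figure D1:**
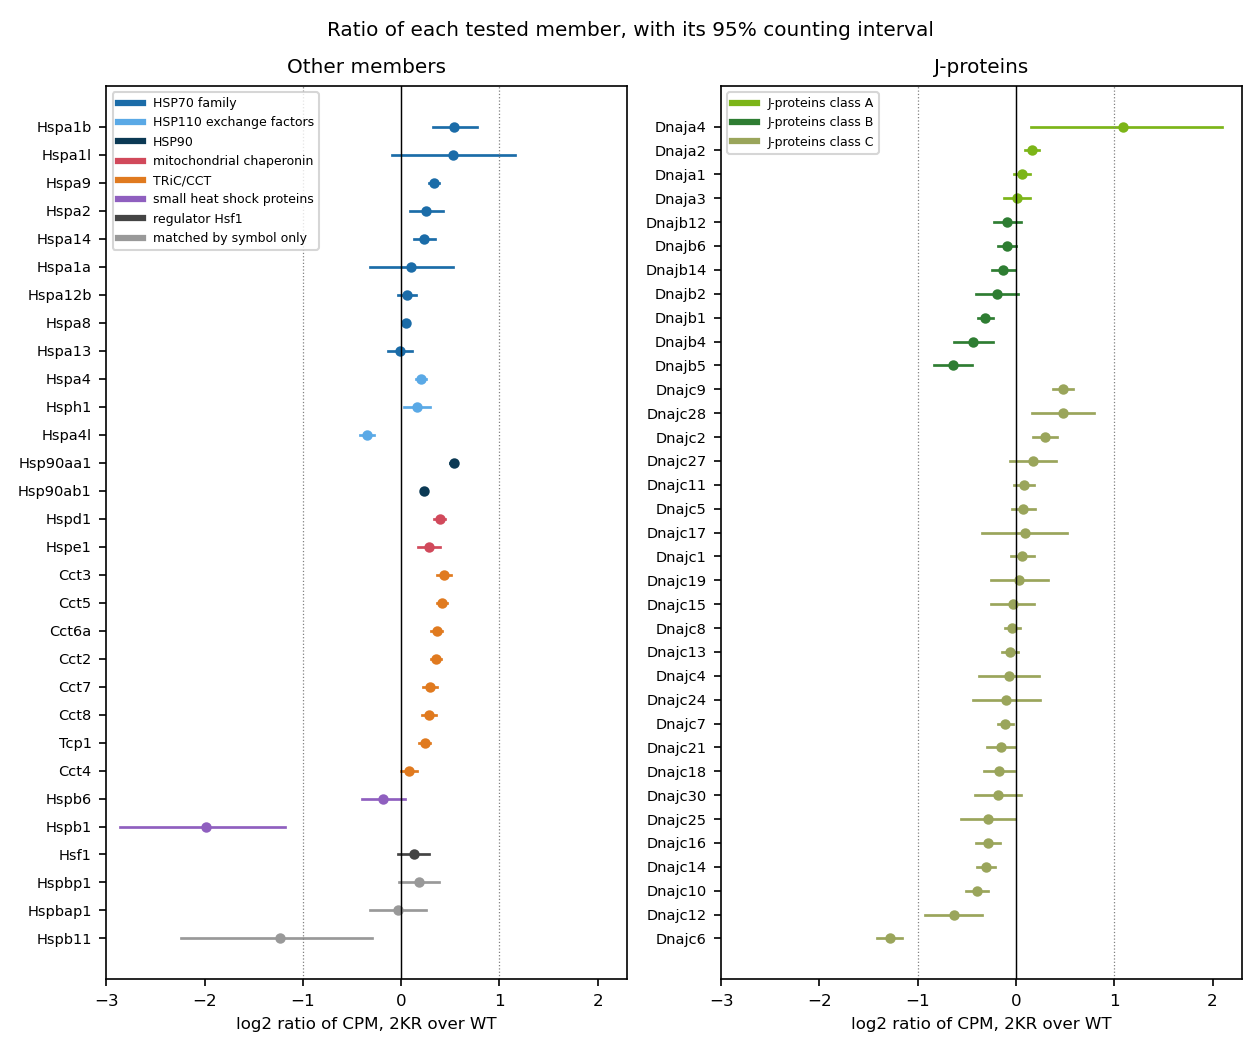
Log2 ratio of CPM without a pseudocount (x axis, 2KR over WT) of each tested chaperone, grouped by role (y axis); points are the ratios, bars the exact 95% counting intervals and dotted lines 2-fold. The 8 TRiC subunits all lie to the right of 0 and the 7 tested class B J-proteins all to the left, while Dnajc6, Hspb1 and Hspb11 lie past the 2-fold line on the low side, and Dnaja4 past that on the high side on this scale without a pseudocount.

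The abundant members had a higher median log2 ratio than abundant genes in general. Of the members, 23 had a mean of at least 100 CPM, and their median log2 ratio was 0.20 (quartiles 0.01 and 0.34). These 23 include all 8 tested TRiC subunits, parts of the same complex, each with a ratio above 1. The 2600 models at that level had a median of 0.04 (quartiles -0.14 and 0.20). At that level 55.6% of all models had a ratio above 1, 44.7% had an interval wholly above 1 and 34.3% wholly below, so that in deeply counted genes an interval off 1 is common.

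**Figure D2:**
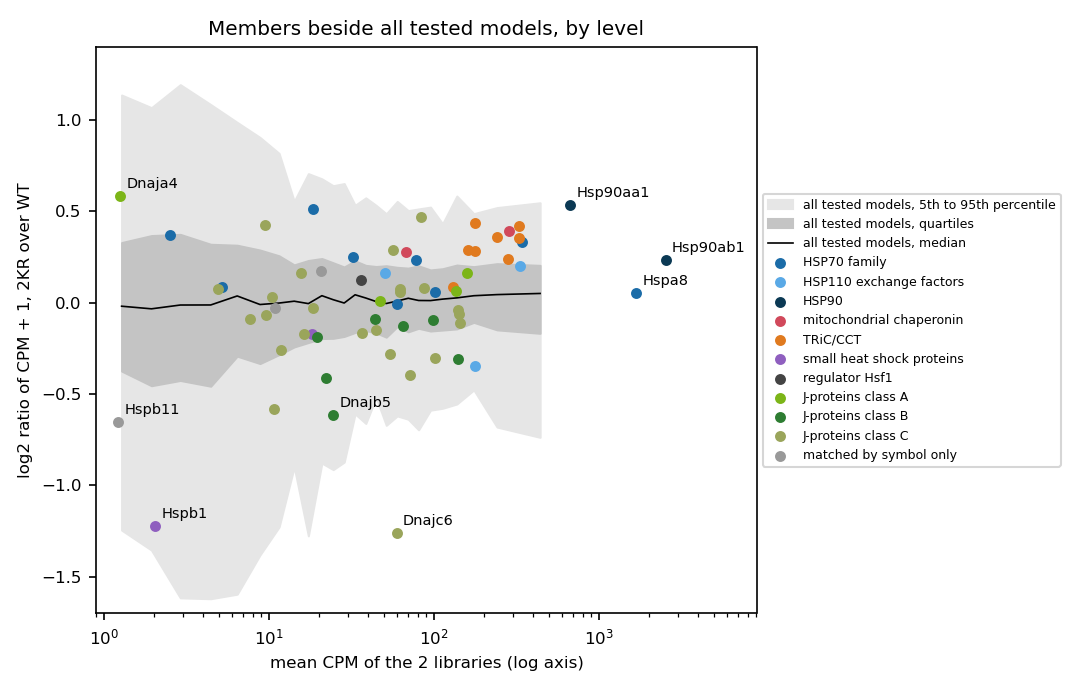
Log2 ratio of CPM + 1 (y axis, 2KR over WT) of each tested chaperone against its mean CPM (x axis, log scale), over grey bands that hold the middle 50% and 90% of all tested models in 25 bins of level. Members up to the level where the bands end lie within them, apart from Dnajc6 below, and Hsp90aa1, Hspa8 and Hsp90ab1 lie to the right of the last bin's median.

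The HSP70 family combines an abundant constitutive gene with inducible ones that had few counts. Hspa8, the constitutive HSP70 of the cytosol (ENSMUSG00000015656, chr9:40800984-40805200), had 28942 counts or 1655 CPM in WT against 35338 counts or 1715 CPM in 2KR. It was the 20th most abundant model by mean CPM and was 1.04-fold higher in 2KR (1.02 to 1.05). Its mitochondrial relative Hspa9, which pulls imported proteins into the matrix, stood at 301 CPM in WT against 380 in 2KR, 1.26-fold higher (1.22 to 1.31). The 2 abundant HSP70 genes thus differed in size: Hspa9 was higher by a larger factor than Hspa8, and their intervals do not overlap.

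The stress-inducible genes Hspa1a (chr17:34969190-34972156) and Hspa1b (chr17:34956436-34959238) lie side by side and encode nearly the same protein. Hspa1a had 87 counts in WT against 110 in 2KR, which is 4.98 and 5.34 CPM and a ratio of 1.07 (0.802 to 1.44). Hspa1b had 262 and 450 counts, 15.0 and 21.8 CPM, and was 1.46-fold higher in 2KR (1.25 to 1.70). Their promoters are near copies: 247 of the 250 bases before each start are identical (98.8%), and the 120 bases printed for Hspa1a are the same letter for letter in Hspa1b. With copies this alike the counting can split or drop reads. The sum is safer against splitting, at 20.0 CPM in WT against 27.2 in 2KR, 1.36-fold higher (1.19 to 1.56). Summing does not bring back dropped reads.

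In both libraries the inducible genes were a small part of the counted cytosolic HSP70 message. Reads dropped because the copies are alike would lower their shares and levels below, by an amount that is not known. Hspa1a and Hspa1b held 1.19% of the counts of these 2 genes and Hspa8 in WT (Wilson 95% interval 1.07 to 1.32) and 1.56% in 2KR (1.44 to 1.69). Per kb of coding transcript, a scale on which genes can be set side by side, Hspa8 was at 691 CPM in WT, Hspa1b at 5.35 and Hspa1a at 1.68.

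The other HSP70 genes showed small differences or none beyond counting error. Hspa14, which works at the ribosome with Dnajc2, stood at 71.6 and 84.3 CPM, 1.18-fold higher (1.09 to 1.27). Hspa2, best known from testis, stood at 29.5 and 35.2 CPM, 1.19-fold higher (1.07 to 1.34). Hspa1l, a further gene of the Hspa1 cluster, had 36 and 61 counts, a ratio of 1.44 (0.937 to 2.23), and it shares 1778 exon bases with Gm10501 on the other strand. The intervals of Hspa1l, of Hspa12b (99.6 and 104 CPM) and of Hspa13 of the endoplasmic reticulum (59.7 and 59.4 CPM) held 1. In all, 8 of 9 tested HSP70 genes had a ratio above 1, 5 with an interval wholly above it, beside 52.3% and 31.6% of all tested models. On library totals alone 9 of 9 ratios lay above 1, since Hspa13 crosses 1 there. The family summed to 2239 CPM in WT against 2408 in 2KR.

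The HSP110 proteins, exchange factors that release ADP from HSP70, lay on both sides of 1. Hspa4 stood at 308 CPM in WT against 354 in 2KR, 1.15-fold higher (1.11 to 1.19). Hsph1, the heat-inducible member, stood at 47.6 and 53.4 CPM, 1.12-fold higher (1.02 to 1.23). Hspa4l (chr3:40744495-40796103) went the other way, from 199 CPM in WT to 157 in 2KR, 1.27-fold lower (1.21 to 1.34). Their sum was nearly level, at 555 and 563 CPM.

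Both cytosolic HSP90 genes were higher in 2KR, the inducible form by more. Hsp90ab1, the constitutive form, had 40853 counts or 2337 CPM in WT against 56573 counts or 2746 CPM in 2KR, 1.18-fold higher (1.16 to 1.19), and was the 15th most abundant model. Hsp90aa1, the inducible form (chr12:110690605-110702728), had 9548 and 16322 counts, 546 and 792 CPM, and was 1.45-fold higher (1.41 to 1.49). Its share of HSP90 counts was 18.9% in WT (Wilson 95% interval 18.6 to 19.3) and 22.4% in 2KR (22.1 to 22.7). In absolute CPM, HSP90 gave the largest gain of any role group, from 2883 to 3538 CPM, 1.23-fold. The mast cell and basophil markers, which were lower in 2KR, stood at 6425 and 3350 CPM, and their part in these levels was not tested.

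**Figure D3:**
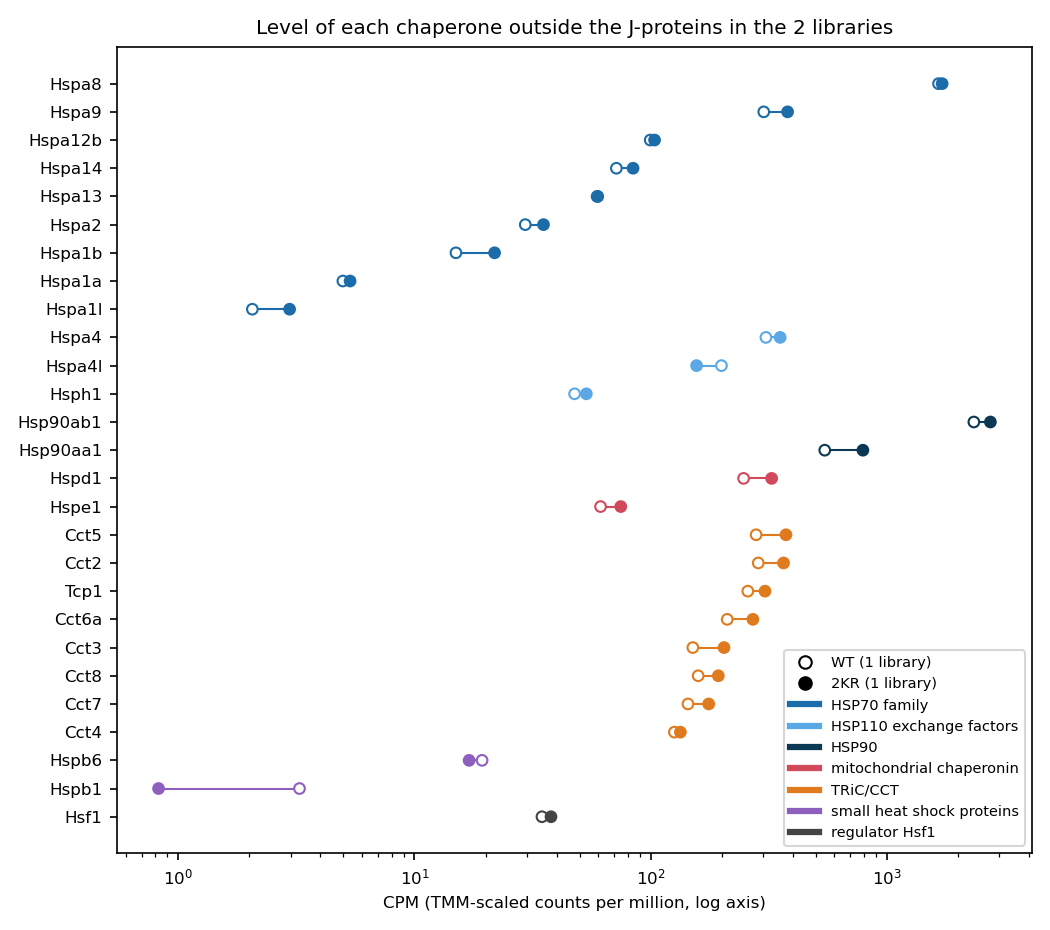
CPM (x axis, log scale) of each tested HSP, TRiC and Hsf1 gene, by role (y axis), without J-proteins and models matched by symbol only, with WT as open and 2KR as filled points, 1 library each. Hsp90ab1 and Hspa8 lie furthest right in both libraries, while Hspa1a, Hspa1l and Hspb1 lie below 10 CPM.

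The mitochondrial chaperonin is made of Hspd1, the barrel, and Hspe1, its lid, whose genes stand head to head and share a promoter. Hspd1 (chr1:55077835-55088243) had 4328 counts in WT against 6703 in 2KR, 248 and 325 CPM, 1.31-fold higher (1.26 to 1.37). Hspe1 (chr1:55088132-55091307) had 1073 and 1540 counts, 61.4 and 74.7 CPM, 1.22-fold higher (1.13 to 1.32). Both partners thus lay in the same direction, with intervals that overlap. The printed element, which holds 4 alternating units and so 2 overlapping matches to the form of 3 units, lies between their starts at 55088148 for Hspe1 and 55087932 for the inner start of Hspd1. The models share 112 exon bases on opposite strands, and no source used here says whether counting used strand.

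Per kb of coding transcript, Hspd1 stood at 102 CPM in WT and Hspe1 at 79.3, a ratio of barrel to lid of 1.29, which was 1.39 in 2KR. A processed copy, Hspd1-ps3, took 1194 and 1907 counts, 21.6% and 22.1% of its counts and those of Hspd1 together, and was 1.36-fold higher in 2KR (1.26 to 1.46). With these counts added to Hspd1 its log2 ratio was 0.40, against 0.39 alone.

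TRiC, the cytosolic chaperonin of 8 different subunits that folds actin and tubulin, was higher in 2KR in all 8 tested subunits. Each had a mean above 100 CPM, where 55.6% of all models had a ratio above 1 and 44.7% an interval wholly above it. Cct3 (chr3:88297116-88321767) stood at 151 CPM in WT against 205 in 2KR, 1.36-fold higher (1.29 to 1.42). Cct5 (chr15:31590800-31601847) stood at 280 and 374 CPM, 1.34-fold higher (1.29 to 1.39). Cct2 (chr10:117050998-117063814) stood at 286 and 365 CPM, 1.28-fold higher (1.23 to 1.33). These 3 and Cct6a, with 211 and 271 CPM and 1.28-fold (1.23 to 1.34), form the upper end of the group.

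The other TRiC subunits were closer to equal. Tcp1, the alpha subunit, stood at 258 and 305 CPM, 1.18-fold higher (1.14 to 1.23). Cct7 stood at 144 and 176 CPM, and Cct8 at 159 and 193, each 1.22-fold higher. Cct4 was the smallest, at 126 and 134 CPM and 1.06-fold (1.002 to 1.12). The interval of Cct4 lies at the edge of 1, and with DESeq2 size factors in place of TMM 7 of the 8 intervals were wholly above 1, while all 8 ratios stayed above it. The summed TRiC level was 1614 CPM in WT against 2024 in 2KR, 1.25-fold (1.235 to 1.27), and the median log2 ratio was 0.32. The subunits were not alike in size, since the intervals of Cct3 and Cct5 lie wholly above those of Tcp1 and Cct4.

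Although the subunits are built into the ring in equal number, their deposited FPKM spread widely, and much of that spread came with the gene length used. In WT the FPKM ran from 15.9 for Cct3 to 145 for Cct2, a factor of 9.07, and in 2KR from 21.1 for Cct4 to 188 for Cct2, a factor of 8.87. Counts per kb of the coding transcript in GENCODE M21, for the 7 subunits that have one there, ran from 50.7 CPM for Cct4 to 151 for Cct5 in WT, a factor of 2.97. In 2KR they ran from 53.8 for Cct4 to 202 for Cct5, a factor of 3.75. For Cct3 the length behind the FPKM was 9402 bases and the coding transcript is 1977 bases. Over the 64 tested members with a coding transcript, the length behind the FPKM was a median of 1.97 times that of the transcript. In 50 of all 65 it was longer than all annotated exon bases of the gene joined. FPKM was therefore not used to set levels of different genes side by side here, and ratios between libraries are not touched by a fixed length.

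**Figure D4:**
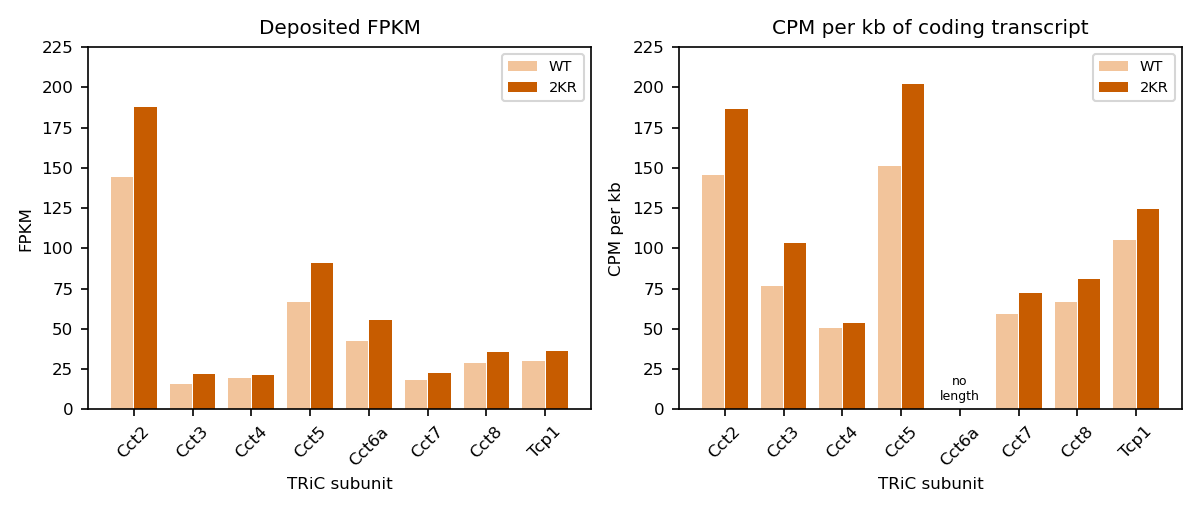
Level of each TRiC subunit as deposited FPKM and as CPM per kb of coding transcript (y axes), with WT and 2KR side by side, 1 library each. On the FPKM scale Cct2 is highest, well above Cct5, on the transcript scale Cct5 is highest, and Cct6a has no transcript length.

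Small heat shock proteins, which hold unfolded proteins without ATP, were scarce. Hspb1 (chr5:135887919-135889563) had 57 counts in WT against 17 in 2KR, 3.26 and 0.825 CPM, and was 3.95-fold lower in 2KR (2.27 to 7.25). Its processed copy Hsp25-ps1 had 21 and 2 counts, and with both summed the log2 ratio was -1.51, against -1.22 for Hspb1 alone. Hspb6 stood at 19.3 and 17.0 CPM, 1.13-fold lower with an interval that holds 1 (0.975 to 1.32). Hspb1 thus had the largest fold among the members, but from few counts, and its log2 ratio was the 413th lowest of all tested models.

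Hsf1, the factor that drives the heat shock response, stood at 34.7 CPM in WT against 37.9 in 2KR, a ratio of 1.09 (0.981 to 1.22). A difference in its message was not detectable at this depth, and the files do not measure its protein or its binding. Among the 3 models matched by symbol only, Hspb11, a subunit of the intraflagellar transport machine of cilia, had 30 and 15 counts, 2.36-fold lower in 2KR (1.23 to 4.71). Hspbp1, an exchange factor of HSP70, stood at 19.4 and 22.0 CPM and Hspbap1 at 10.9 and 10.7 CPM, and both intervals held 1.

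The J-proteins of class A, relatives of bacterial DnaJ with all of its parts, were level or slightly higher in 2KR, except that Dnaja3 lay just below 1 when ratios were centred on the median of all tested models. Dnaja2 stood at 149 CPM in WT against 166 in 2KR, 1.12-fold higher (1.06 to 1.18). Dnaja1 stood at 133 and 139 CPM, with an interval that holds 1 (0.989 to 1.10), as did Dnaja3 of the mitochondria at 47.0 and 47.3 CPM. Dnaja4 had 14 counts in WT against 35 in 2KR, a ratio of 2.12 (1.11 to 4.27), and it shares 1581 exon bases with Wdr61 on the other strand, which had 434 and 574 counts. Dnaja4 is therefore uncertain, and without it class A holds no member past 1.12-fold.

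Class B showed the opposite direction, with all 7 tested members lower in 2KR, beside 47.7% of all tested models. The interval lay wholly below 1 in 4 of the 7 (3 on library totals alone, 5 with DESeq2 size factors), beside 28.5% of all tested models. Dnajb1, the heat-inducible partner of cytosolic HSP70, had 2694 counts or 154 CPM in WT against 2560 counts or 124 CPM in 2KR, 1.24-fold lower (1.17 to 1.31). Dnajb5 (chr4:42949814-42959425) had 520 and 393 counts, 29.7 and 19.1 CPM, and was 1.56-fold lower (1.37 to 1.78). Dnajb4, named after its values were seen, stood at 25.3 and 18.7 CPM, 1.35-fold lower. Dnajb4 and Dnajb5 are the closest relatives of Dnajb1 by domain layout, and these were the 3 lowest ratios of the class.

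The other class B members differed by less. Dnajb14 stood at 68.1 and 62.3 CPM, 1.09-fold lower (1.01 to 1.18), and its relative Dnajb12, also of the endoplasmic reticulum membrane, at 45.3 and 42.6 CPM with an interval that holds 1. Dnajb6, which keeps aggregating proteins soluble, stood at 101 and 95.1 CPM, and Dnajb2 at 20.8 and 18.2 CPM, both with intervals that hold 1. The class summed to 445 CPM in WT against 380 in 2KR, 1.17-fold lower (1.13 to 1.21), with a median log2 ratio of -0.18. The direction of all 7 was the same under each scaling tried.

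Dnajb1 was lower in 2KR, unlike the HSP70 genes it serves. The log2 ratio of Hspa8, 0.05, was the median of the 499 most abundant tested models. Hspa8 was 1.04-fold higher in 2KR and the sum of Hspa1a and Hspa1b 1.36-fold higher, while Dnajb1 was 1.24-fold lower. The intervals of the 3 do not overlap, counting error only.

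Class C holds proteins that share little beyond the J-domain, and its 24 tested members went both ways. Of these, 9 lay above 1 and 15 below, beside 47.7% of all tested models below. The interval lay wholly below 1 in 9 of the 24, beside 28.5% of all tested models, or in 6 when scaled by library totals alone. Dnajc6, auxilin, which directs Hspa8 to strip clathrin from coated vesicles (chr4:101496648-101642799), had 1475 counts or 84.4 CPM in WT against 713 counts or 34.6 CPM in 2KR. It was 2.44-fold lower (2.23 to 2.67), the lowest log2 ratio of all members, at -1.26, and the 385th lowest of the 12466 tested models. Dnajc6 was the only member with a mean above 5 CPM that differed by 2-fold or more. The mast cell markers that were also lower in 2KR, and the monocyte markers, which went both ways, are given above, and their part in this value was not tested.

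The 4 most abundant class C genes were level or slightly lower. Dnajc7, which binds both HSP70 and HSP90, stood at 149 CPM in WT against 138 in 2KR, 1.08-fold lower (1.02 to 1.14). Dnajc14 stood at 111 and 90.1 CPM, 1.24-fold lower (1.16 to 1.32), and it shares 1114 exon bases with Ormdl2 on the other strand. Dnajc13, an endosomal protein, stood at 144 and 138 CPM and the splicing protein Dnajc8 at 141 and 137 CPM, with intervals that hold 1.

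The class C genes with intervals wholly above 1 were 3 of 24, beside 31.6% of all tested models, and were named after their values were seen. Dnajc9, a histone chaperone (chr14:20384638-20388910), stood at 69.4 CPM in WT against 96.6 in 2KR, 1.39-fold higher (1.296 to 1.497). Dnajc2, which works with Hspa14 at the ribosome, stood at 50.8 and 62.4 CPM, 1.23-fold higher (1.13 to 1.34), beside 1.18-fold for Hspa14. Dnajc28 had 138 and 226 counts, 1.39-fold higher (1.12 to 1.73). On the low side, also named after their values were seen, Dnajc12 was 1.55-fold lower (1.27 to 1.90) and Dnajc10, a reductase of the endoplasmic reticulum, 1.32-fold lower (1.22 to 1.42). The remaining tested class C members lay between 1.22-fold lower and 1.13-fold higher.

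By the compartment in which the proteins work, a grouping made after the values were seen, the members of the endoplasmic reticulum that the rule kept lay low and the mitochondrial ones were mixed. Of 9 members of the endoplasmic reticulum, 8 had a ratio below 1, 6 with the whole interval, beside 47.7% and 28.5% of all tested models. These 9 summed to 538 CPM in WT against 473 in 2KR, 1.14-fold lower. Of 8 members listed as mitochondrial, 6 had a ratio above 1, beside 52.3% of all tested models. Their sum was 788 and 961 CPM, 1.22-fold higher. That sum rests on Hspa9, Hspd1 and Hspe1, the 3 with intervals wholly above 1. The 5 J-proteins of this list, Dnaja3, Dnajc11, Dnajc15, Dnajc19 and Dnajc30, had intervals that hold 1. Dnajc28, with an interval wholly above 1, was not on the list. Transcripts of the mitochondrial chromosome itself took a smaller share in 2KR, 6.22% against 7.45%.

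Partners that are not members were described from lists of 60 genes, of which 59 were tested. A ratio above 1 was found in 39 and below 1 in 20, beside 52.3% of all tested models above 1, and 3 were at least 1.5-fold different, all lower in 2KR, beside 9.67% of all tested models lower at that mark. The median log2 ratio was 0.08, beside 0.02 for all tested models.

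Of the 17 HSP90 co-chaperones 11 lay above 1, beside 52.3% of all tested models. Among the 17, 10 intervals lay wholly above 1 and 4 wholly below, beside 31.6% and 28.5% of all tested models. Their sum was level, at 2111 and 2107 CPM, with the lower level of Fkbp5 set against higher levels of most others. Fkbp5, an immunophilin of steroid receptor complexes and a known glucocorticoid target, differed most, at 473 CPM in WT against 266 in 2KR, 1.78-fold lower (1.72 to 1.84). The other immunophilins of these complexes were higher: Fkbp4 stood at 145 and 186 CPM, 1.29-fold (1.22 to 1.35), and Ppid at 123 and 166 CPM, 1.34-fold (1.27 to 1.42). Stip1, which links HSP70 to HSP90, stood at 284 and 346 CPM, 1.22-fold higher (1.18 to 1.27), and Ptges3, which closes the HSP90 clamp, at 49.2 and 64.2 CPM, 1.303-fold higher. Both cultures were grown with hydrocortisone, a glucocorticoid, per the labels' protocols.

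The exchange and holding factors of HSP70 had 5 of 7 above 1, beside 52.3% of all tested models. Bag2 was 1.35-fold higher (1.15 to 1.60), Bag4 1.22-fold and Bag1 1.16-fold. Bag3, the heat-inducible partner of small heat shock proteins, was 1.28-fold lower (1.17 to 1.41), at 53.5 CPM in WT against 41.8 in 2KR. The abundant St13 stood at 270 and 299 CPM and Bag6 at 275 and 279. Bag3 thus lay with Hspb1 and Dnajb1 on the low side.

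Prefoldin and the other helpers of TRiC were mixed. Of 9, 5 were above 1 and 3 had an interval wholly above it, beside 52.3% and 31.6% of all tested models. These 3 were Pfdn6 at 1.34-fold, Vbp1 at 1.28-fold and Pdcl at 1.20-fold. Pfdn4 was 1.24-fold lower with an interval that holds 1 (0.969 to 1.59), and the most abundant, Pfdn5 and Txndc9, stood at 77.9 and 74.5 CPM and at 54.4 and 51.3 CPM. The difference between this list and TRiC was not tested.

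Of 12 actin and tubulin genes, which encode the main clients of TRiC, 7 lay above 1, with 5 intervals wholly above it and 4 wholly below. For all tested models these shares were 52.3%, 31.6% and 28.5%. Tubb2a was 1.88-fold lower in 2KR (1.63 to 2.16) and Tuba1a 1.74-fold lower (1.67 to 1.81), from 362 CPM to 208. Tuba4a was 1.22-fold higher and Tubb6, a scarce form, had a ratio of 1.34 with an interval that holds 1 (0.955 to 1.89). The most abundant, Actb and Tubb5, stood at 1327 and 1237 CPM and at 1221 and 1385 CPM.

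In the mitochondrial folding and quality control list 9 of 11 were above 1, with 4 intervals wholly above it and none wholly below. For all tested models these shares were 52.3%, 31.6% and 28.5%. Timm50 of the import channel was 1.39-fold higher (1.22 to 1.59), the disaggregase Clpb 1.38-fold and the iron-sulphur J-protein Hscb 1.37-fold. Trap1, the mitochondrial HSP90, stood at 292 and 353 CPM, 1.21-fold higher (1.17 to 1.25), and the protease Lonp1 at 116 and 118 CPM. Of the other heat shock factors, Hsf2 and Hsf4 had intervals that hold 1, and the binding protein Hsbp1 stood at 89.0 and 95.5 CPM, 1.07-fold higher.

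**Figure D5:**
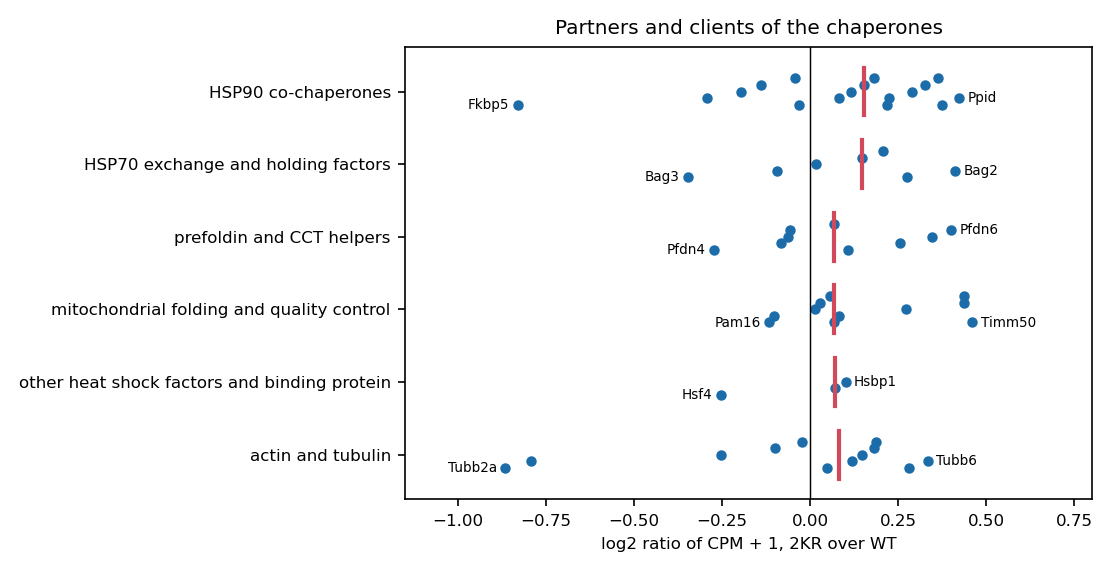
Log2 ratio of CPM + 1 (x axis, 2KR over WT) of each tested gene of the partner lists (y axis), with a red bar at each list's median. The medians lie between 0.07 and 0.15, and Fkbp5, Tuba1a and Tubb2a stand apart on the low side.

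The textbook heat-inducible genes, members and partners together, were set side by side because Hsf1 is known to drive them. Of 16, 13 had a ratio above 1 and 11 an interval wholly above it, beside 52.3% and 31.6% of all tested models. Among models at 100 CPM or more these shares were 55.6% and 44.7%. The median log2 ratio of the list was 0.19. The list includes Hspa8 and Hsp90ab1, described above as constitutive. The 3 below 1, each with its whole interval, were Hspb1, Dnajb1 and Bag3. The list therefore held both directions, and it shares 11 genes with the chaperone groups already described.

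Promoter windows of 300 bases, 250 before and 50 after the start, were found in the RefSeq table for 62 of the 77 members. The 15 without a window include Hsp90aa1, Hsp90ab1, Hspa8, Hspa9 and Cct4. An element of 2 units, searched as GAANNTTC and TTCNNGAA, each of which reads the same on both strands, was present in 18 of 62 members (29%), beside 17% of the 27025 genes in the table. An element of 3 units, searched on both strands as 2 elements of 2 units that overlap by a shared GAA or TTC, was present in 4 members (6.45%), Hspd1, Hspe1, Hsph1 and Dnajb6, beside 0.662% of all genes. That of Hsph1 lies after the start, within the 50 bases searched there. The CCAAT box, searched as CCAAT and ATTGG, was in 38.7% of the members and 41.1% of all genes. Heat shock elements were thus found in a larger share of the chaperone genes than of all genes, and CCAAT was not.

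Among tested members that have a window, the ratios of those with and without an element overlapped widely. Abundant members such as Hsp90aa1, Hsp90ab1, Hspa8 and Hspa9 have no window and are missing from this comparison. The 16 tested members with an element of 2 units had a median log2 ratio of 0.16 and 11 above 1, and the 36 without had a median of -0.03 and 17 above. Of the 4 with an element of 3 units, Hspd1, Hspe1 and Hsph1 had intervals wholly above 1, while Dnajb6 stood at 101 and 95.1 CPM. Members with CCAAT had the same median as those with the element of 2 units, 0.16, beside -0.05 without. The printed Hspb1 promoter holds 2 separate elements, and Hspb1 was 3.95-fold lower, while that of Hspa1b holds 1 and Hspa1b was 1.46-fold higher. A match in these windows describes letters only, and heat shock elements further away were not searched.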

How the data were processed

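RNA-seq was done on 2 cultures, grouped by the infection in the labels, 1 library each. The submitters' processing notes name HISAT2 2.0.4 and GRCm38. No source used here gives the counting program, annotation or strand setting. The authors deposited a read count and an FPKM value per gene model, per the file headers, and coordinates are those of the files. For the chaperones, 57 of 77 have the same start and end as in GENCODE M21, which supplied strand, exons and transcript lengths.

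Counts were scaled by TMM (edgeR 4.0.16, R 4.3.3) to CPM over 17606168 counts in WT and 20462011 in 2KR. Tested models are those whose mean reached 1 CPM, and log2 ratios used a pseudocount of 1 CPM. Marks of 1.5-fold and 2-fold apply to that log2 ratio. Without replicates no test was run. Folds carry no pseudocount and have exact 95% intervals (Clopper-Pearson, on the count ratio). Reads are not independent molecules, so intervals and the floor of 3 counts cover counting error only. Counting and intervals were tested on simulated data. Scripts ran under Python 3.11.15 with scipy 1.17.1, pandas 2.3.3, numpy 2.4.6 and matplotlib 3.10.9. Promoters came from a RefSeq table on GRCm38.p6.

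Named were all tested members of the HSP70, HSP110, HSP90, chaperonin, small heat shock protein and TRiC groups and Hsf1. Of the J-proteins and other symbols, those at least 1.5-fold different and the 4 most abundant per class were named. Of each partner list, up to 4 genes with the largest log2 ratio in size and the 2 most abundant were named. Dnajb2, Dnajb4, Dnajc2, Dnajc9, Dnajc10, Dnajc12 and Dnajc28 were named after their values were seen. The members and lists were chosen with earlier results of these data known. Alternatives were other pseudocounts, filters and scalings (DESeq2 1.42.0 size factors, library totals, centred ratios) and the deposited FPKM. The length scale for TRiC and the sums with pseudogenes or the Hspa1 copies were added after seeing the data.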

Additional observations from a re-analysis of the deposited data

How the results depend on the processing

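With 1 library per form no difference has a replicate check, and no library could be left out. No paired analysis was possible because each form has 1 library and the labels give no replicate numbers. Of the summary values, 147 moved by less than a set yardstick, or for counts by no more than 1.5-fold, and 15 moved further. For a median the yardstick was the median half-width of the counting intervals of its single genes. That is not the error of the median, so the label does not show that medians were stable. For all members it was 0.12, beside a median log2 ratio of 0.06 that ran from 0.04 to 0.08 over the settings. Of the single gene values 581 moved by less than the counting error and 3 moved further. Values near 0 could change side within that error. None changed sign while called. The count of members at least 2-fold different, 2 in the main setting and all lower, was 1 under each of a pseudocount of 5, a filter at a mean of 5 CPM and the deposited FPKM, and 3 with a pseudocount of 0.1. The count at least 1.5-fold different, 4 in the main setting and all lower, was 1 with a pseudocount of 5, 2 with that filter and 2 with FPKM. It was 6 with a pseudocount of 0.1 and 5 with DESeq2 size factors, with either library total and with centred ratios. The count at least 1.5-fold higher, 0 in the main setting, was 1 with a pseudocount of 0.1, with the library total alone and with that total without the mitochondrial chromosome, and that gene was Dnaja4. Hspb1 and Hspb11 have few counts, and a larger pseudocount or a higher filter takes them below these marks by construction. Among directions, 1 class A gene (Dnaja3) lay below 0 when ratios were centred on the median, and Hspa13 lay above 0 with the library total alone and with FPKM. Scaling moved the median of all tested models by no more than 0.04 on the log2 scale. All 8 TRiC subunits stayed above 1 and all 7 class B J-proteins below it in every setting that kept them.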
